A study of Homo sapiens with 21 samples.

Results

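The genes described here carry out fatty acid oxidation and the TCA cycle, the mitochondrial routes by which heart muscle makes most of its ATP. They are 37 genes chosen by name: regulators, fatty acid uptake and binding proteins, the carnitine shuttle, the enzymes of beta-oxidation, the electron transfer flavoproteins and the TCA cycle. They were looked up in 6 deposited tables of transcript changes, in which 11851 genes have at least 1 listed transcript. Of the 37 genes, 34 were listed in at least 1 table, with 58 distinct transcripts. ETFA, DLST and SUCLG2 were listed in none: these encode a subunit of the electron transfer flavoprotein, the succinyltransferase of the oxoglutarate dehydrogenase complex and the GTP-forming succinyl-CoA ligase subunit.

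The study asked how the transcriptome changes while human induced pluripotent stem cells (iPSCs) become cardiomyocytes, and what loss of UBE2B, the ubiquitin-conjugating enzyme of the complex that monoubiquitylates histone H2B, changes in the cardiomyocytes. Polyadenylated RNA was sequenced at 5 stages of wild-type PGP1, an established line of human iPSCs: the iPSC stage itself, mesoderm (M), then cardiac mesoderm (abbreviated CMes), progenitors of the heart (CP) and cardiomyocytes (CM). It was also sequenced from CMs of UBE2B-/-1 and UBE2B-/-2, knockout lines of the same parent from separate CRISPR experiments. There were 3 libraries in each of these 7 groups, 21 in all, and the replicates of a group were plates whose differentiation began at different times. Differentiation used CHIR99021, a GSK3 inhibitor, and then IWP4, a Wnt secretion inhibitor, in RPMI with B-27 lacking insulin, and insulin was present later. After the onset of beating, CMs were selected with lactate in medium without glucose, which cells other than cardiomyocytes survive poorly, so that from CP to CM the stage, the medium and the selection changed together and cannot be told apart. The UBE2B-/- libraries came from beating wells, and the mutant cells were plated at a higher number than wild type.

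Long-chain fatty acids enter a cell through carriers such as CD36, are bound by fatty acid binding proteins, are activated to acyl-CoA and cross the inner mitochondrial membrane as carnitine esters. Each turn of beta-oxidation then removes an acetyl unit through a dehydrogenase, a hydratase, a second dehydrogenase and a thiolase, and the TCA cycle oxidizes the acetyl group. The fetal heart relies largely on glycolysis and lactate, and the switch to fatty acids after birth is driven by PPARA, the ERR receptors and their coactivator PPARGC1A.

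A transcript was listed only with a q-value of at most 0.05 from the authors' Wald test in Sleuth, and it is said here to have risen or fallen only when it also passed the fold limit, a change of at least 0.84 on the log2 scale (1.79-fold). Where several transcripts of a gene were listed, the one with the highest mean spoke for the gene. Levels are mean estimated counts per library (geometric means of 3 libraries) on the scale of the CP to CM table, to which the other tables were shifted through the stage that adjacent tables share. The tables hold no values of single libraries, so the spread between libraries is given as the residual standard deviation (SD) of each transcript on the log2 scale, and whether groups overlap cannot be seen. Kallisto divides reads among overlapping transcripts, so a level of 1 transcript is not the level of its gene.

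Marker genes were looked at first, since the tables pool cells of a dish. From CP to CM all 12 cardiomyocyte markers rose, their summed level going from 14085 to 591560 estimated counts, 6 of 7 pluripotency markers fell (36898 to 594 over those listed), and all 6 listed of 9 endoderm and hepatic markers fell (20453 to 858). Of the 8 mesenchymal markers 5 fell and 2 rose (43209 to 10397 over the 7 listed). This sum holds COL1A1 only by a low transcript (45.4 to 135). The COL1A1 transcript that led from CMes to CP, at 29668 at CP, was not listed from CP to CM. UBE2B itself was listed for UBE2B-/-1 with 1 transcript (ENST00000499038.2), lower by a log2 change of -1.91 (standard error, SE, 0.53, q = 0.0113), and it was not listed for UBE2B-/-2. The more abundant UBE2B transcript listed from CP to CM, ENST00000265339.6, was listed for neither line, so the tables are a weak check of the knockout labels.

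The stretches of genome before 3 start sites are shown for these reasons: FABP3 had the largest rise, SUCLA2 is a TCA cycle gene with a match to the ERR site, and the HADHB stretch is most of the gap between the start sites of HADHA and HADHB. They are the 250 bases before the RefSeq start on GRCh38.p14, 5′ to 3′ on the strand of the gene, and in each case the RefSeq start equals the start of the listed transcript. Capitals mark matches, on either strand, to AAGGTCA (the core site of the ERR receptors) or to the site AGATAA, which the heart factor GATA4 and its relatives bind. The letters of these motifs do not overlap.
FABP3, chr1:31373077-31373326, minus strand: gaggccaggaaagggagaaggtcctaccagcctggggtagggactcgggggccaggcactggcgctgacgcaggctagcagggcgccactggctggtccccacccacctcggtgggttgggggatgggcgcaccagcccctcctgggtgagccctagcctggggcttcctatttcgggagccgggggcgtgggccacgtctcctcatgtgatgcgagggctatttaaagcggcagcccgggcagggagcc
SUCLA2, chr13:48001274-48001523, minus strand: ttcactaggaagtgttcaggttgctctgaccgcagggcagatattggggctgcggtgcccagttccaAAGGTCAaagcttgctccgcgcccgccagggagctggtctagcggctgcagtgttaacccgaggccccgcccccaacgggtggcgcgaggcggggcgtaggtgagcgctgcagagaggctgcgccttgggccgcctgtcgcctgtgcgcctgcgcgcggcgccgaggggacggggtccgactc
HADHB, chr2:26244689-26244938, plus strand: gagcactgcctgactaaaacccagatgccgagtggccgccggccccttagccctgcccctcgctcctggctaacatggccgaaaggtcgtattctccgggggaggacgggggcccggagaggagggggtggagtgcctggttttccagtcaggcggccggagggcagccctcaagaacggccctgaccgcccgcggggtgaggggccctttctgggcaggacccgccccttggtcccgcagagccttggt

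RefSeq windows of 300 bases (250 before and 50 after a start) were found for 34 of the 37 members, 57 windows in all, and CPT1B, ETFDH and OGDH had none in the table. The ERR core site AAGGTCA was in 2 of the 57 windows, those of ESRRG and SUCLA2 (3.51%, against 3.92% of all 35116 windows). The GATA letters AGATAA were in 5, those of ACADVL, CD36, ETFA, ETFB and SUCLG1 (8.77%, against 10.3%). These are matches of letters in a window, with no binding measured.

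The stage course had 1 main step. From CP to CM 24 of the 37 members rose and 2 fell, or 70.6% and 5.88% of the 34 members listed in any table. The background was 26.6% of the 11851 listed genes higher and 23.6% lower. The median change of the 32 listed members was 1.34 on the log2 scale, against 0.55 over all genes listed in that table, and was the same with groups under 3 counts set at their bounds. By the q-value alone 30 members were higher in CM and 2 lower, against 36.1% and 30.4% of the listed genes, and of the 49 member transcripts listed 47 were higher. With a t distribution on 4 residual degrees of freedom instead of the normal used by the authors, 6 members still passed: FABP3, CPT1A, PPARGC1A, IDH2, MDH1 and HADHB.

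The earlier transitions moved few members. Shares are again of the 34 members listed in any table. From iPSC to M 1 rose and 1 fell, each 2.94%, against a background of 5.07% higher and 6.94% lower. From M to CMes 2 rose (5.88%, background 14.5%) and 4 fell (11.8%, background 10.3%). From CMes to CP 4 rose (11.8%, background 13.2%) and 1 fell (2.94%, background 10.9%). Markers of other cells moved at these steps too. From M to CMes 6 of 8 mesenchymal markers (74.6 to 3029 in summed level) and 5 of 9 endoderm and hepatic markers (87.0 to 2532) rose, and from CMes to CP 6 of 8 mesenchymal (6134 to 72738), 6 of 9 endoderm and hepatic (2542 to 27654) and 8 of 12 cardiomyocyte markers (2138 to 13469) rose, and their part in the members' changes was not tested. With the t distribution 0 members passed at these 3 transitions, where 5, 11 and 10 members were listed. All of them had an unadjusted p under 0.05 in that test, but the q-value limit for listing already ensures this, so it adds no support. No member was listed at all 4 transitions, 7 were listed at 3, 10 at 2 and 17 at 1.

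**Figure D1:**
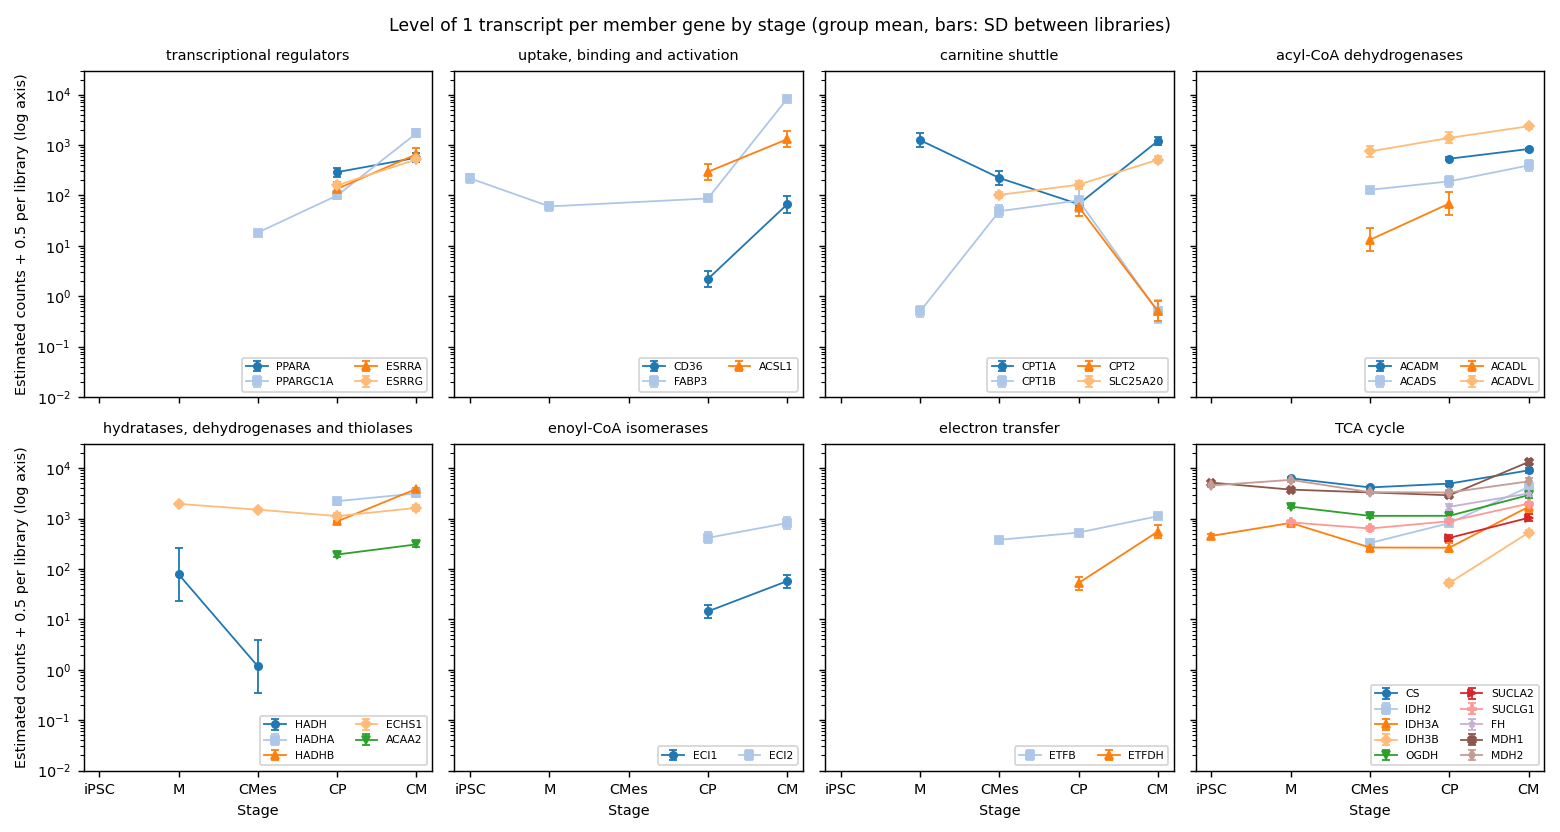
Level of 1 transcript per member gene (the one known at most stages, then the highest) at the iPSC, M, CMes, CP and CM stages, as mean estimated counts + 0.5 per library on a log axis, with bars of 1 residual SD between 3 libraries; a line joins the stages at which a transcript is known. PPARGC1A climbs from 17.9 at CMes to 1714 at CM, CPT1A falls from 1251 at M to 66.8 at CP and stands at 1204 at CM, and MDH2 stays between 3291 and 5865.

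All 4 regulators rose from CP to CM. PPARGC1A (chr4:23755041-23904089, minus strand), the coactivator that drives mitochondrial gene programmes, rose at both of the last transitions. Its full-length transcript ENST00000264867.7 stood at 17.9 estimated counts at CMes, 99.6 at CP and 1714 at CM, and the residual SD was 0.16 and 0.25 at the 2 transitions. The log2 change was 2.44 (SE 0.44, q = 7.72e-07) from CMes to CP and 4.10 (SE 0.21, q = 2.24e-83) from CP to CM, and across both the level went up 93.0-fold. A PPARGC1A transcript annotated for nonsense-mediated decay (NMD) went from 11.3 to 277 between CP and CM.

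ESRRA, the estrogen-related receptor alpha, went from 135 to 657 estimated counts from CP to CM (log2 change 2.27, SE 0.36, q = 6.62e-09). ESRRG, the related receptor gamma of heart and other oxidative tissue, went from 159 to 519 (1.70, SE 0.26, q = 2.63e-09). For PPARA, the nuclear receptor that senses fatty acids, only a retained-intron transcript was listed, and it went from 290 to 560 (0.95, SE 0.24, q = 6.83e-04). None of these 3 was listed before CP, so their earlier course is not known from these tables.

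The 3 genes of uptake, binding and activation rose. FABP3 (chr1:31365253-31376850, minus strand) encodes the fatty acid binding protein of heart muscle. Its transcript ENST00000373713.6 stood at 218 estimated counts in iPSCs, 60.1 at M, 86.7 at CP and 8308 at CM, with residual SDs of 0.31 at the first transition and 0.20 at the last. It fell by 1.85 on the log2 scale from iPSC to M (SE 0.27, q = 8.29e-10) and rose by 6.57 from CP to CM (SE 0.20, q = 1.89e-238). This was the largest rise of any member with more than 3 counts in both groups, 95.3-fold, and the CM level was 38.0 times the iPSC level. An NMD transcript of FABP3 went from 6.72 to 214 at the last step (4.89, SE 0.88, q = 5.55e-07).

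ACSL1, the long-chain acyl-CoA synthetase of muscle, fat and liver, went from 294 to 1304 estimated counts (log2 change 2.15, SE 0.43, q = 1.11e-05). CD36, the fatty acid translocase, was close to absent at CP and low at CM: its leading transcript went from 1.70 to 66.2 estimated counts (q = 1.51e-04) and another from 0 to 18.0 (q = 0.0398). No fold is given, since CP lay under 3 counts per library.

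Of the 4 carnitine shuttle genes 2 rose and 2 fell from CP to CM. CPT1A (chr11:68754620-68844410, minus strand), the liver form of the outer-membrane carnitine palmitoyltransferase, had its lowest level at CP among the 4 stages at which it is known (M to CM). Its transcript ENST00000265641.10 stood at 1251 estimated counts at M, 222 at CMes, 66.8 at CP and 1204 at CM, with residual SDs between 0.24 and 0.48. It fell by 2.49 on the log2 scale from M to CMes (SE 0.39, q = 1.30e-08), fell by 1.73 from CMes to CP (SE 0.25, q = 1.07e-10) and rose by 4.16 from CP to CM (SE 0.23, q = 1.08e-69). The CM level was 0.962 times the M level, and that ratio was not tested since no table compares M with CM.

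SLC25A20, the carnitine-acylcarnitine carrier of the inner membrane, stood at 102, 163 and 512 estimated counts at CMes, CP and CM. The step to CM passed the limits (log2 change 1.65, SE 0.20, q = 1.90e-14), and the step before was 0.68 (SE 0.22, q = 0.0247), within the fold limit. CPT1B is the muscle form, and its exons are shared with a readthrough transcript of its neighbour CHKB so that its reads are uncertain. CPT2 is the inner-membrane transferase. For both, only a transcript other than the canonical one of the gene annotation was listed. The CPT1B transcript ENST00000405237.7 was at 0 at M, 48.2 at CMes, 79.2 at CP and 0 at CM (q = 0.0198 and 0.00243 for the steps from M and to CM), and the CPT2 transcript ENST00000637252.1 went from 59.5 at CP to about 0 at CM (q = 0.00368). Against a floor of 3 counts per library the fall to CM was at least 26.4-fold for the first and at least 19.8-fold for the other. These were the only 2 listed member transcripts lower in CM than in CP, and the canonical transcript of neither gene was listed. Non-canonical transcripts also led for members that were higher in CM, among them IDH3B, ETFDH and ACADM.

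**Figure D2:**
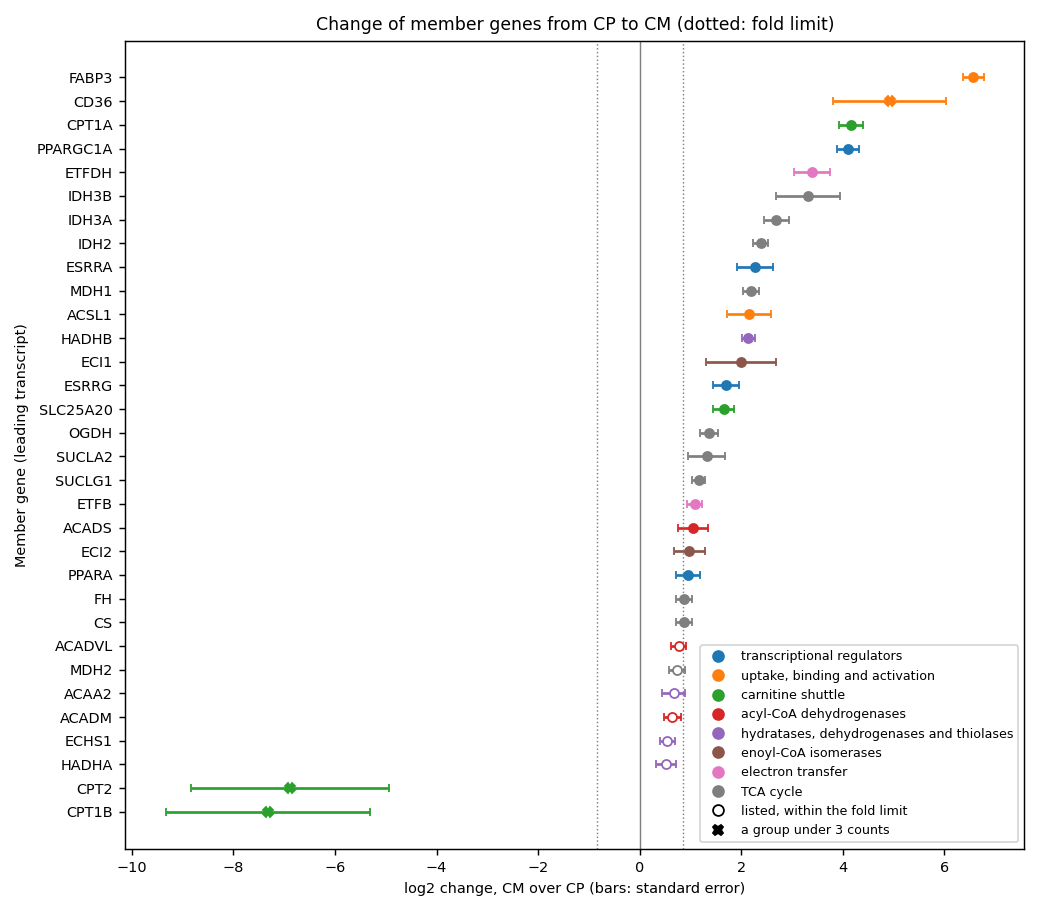
The log2 change from CP to CM of the leading transcript of each of the 32 listed members, with bars of 1 SE, coloured by role; open circles lie within the fold limit (dotted lines) and crosses have a group under 3 estimated counts, so that their fitted value depends on the pseudocount. FABP3 stands at 6.57, HADHB at 2.14 and HADHA at 0.52, and only the crosses of CPT1B and CPT2 lie below 0.

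Among the enzymes of beta-oxidation, 1 of the 4 acyl-CoA dehydrogenases, 1 of the 5 hydratases, hydroxyacyl dehydrogenases and thiolases and both isomerases rose from CP to CM. Of the 4 acyl-CoA dehydrogenases, which open each turn and differ in chain length, only ACADS, the short-chain enzyme, rose by its leading transcript from CP to CM: it stood at 129, 190 and 394 estimated counts at CMes, CP and CM (last step 1.05 on the log2 scale, SE 0.29, q = 0.00312). ACADVL, the very-long-chain enzyme, stood at 748, 1386 and 2363 for its main transcript. It rose from CMes to CP (0.89, SE 0.29, q = 0.0268), and the last step was 0.77 (SE 0.15, q = 5.42e-06), within the fold limit. An NMD transcript of ACADVL went from 75.3 to 397 at that step (2.39, SE 0.66, q = 0.00290), and 2 retained-intron transcripts had risen from M to CMes, from 68.4 to 184 and from 69.4 to 172.

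For ACADM, the medium-chain enzyme, a different transcript led at each of the transitions at which it was listed. ENST00000526196.5, annotated for NMD, went from 194 to 340 estimated counts from iPSC to M (0.80, SE 0.26, q = 0.0419, within the fold limit), ENST00000370841.8 fell from 311 to 148 from M to CMes (-1.07, SE 0.26, q = 8.86e-04), and ENST00000420607.6 went from 535 to 834 from CP to CM (0.64, SE 0.17, q = 0.00131, within the fold limit). A further NMD transcript of ACADM rose at that last step, from 88.9 to 192 (1.11, SE 0.40, q = 0.0321). ACADL, the long-chain enzyme, was low: 12.7 at CMes and 68.7 at CP (2.39, SE 0.63, q = 0.00228), and it was not listed from CP to CM.

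HADHA and HADHB encode the alpha and beta subunits of the mitochondrial trifunctional protein, which carries out the last steps of each turn on long chains. Their start sites lie head to head on chromosome 2 with 306 bases between them, most of which is the HADHB stretch printed above. HADHB went from 879 to 3878 estimated counts, with a residual SD of 0.05 (log2 change 2.14, SE 0.13, q = 5.87e-55). HADHA went from 2215 to 3167, with a residual SD of 0.24 (0.52, SE 0.20, q = 0.0467), within the fold limit. An NMD transcript of HADHA at nearly the same level, ENST00000643233.1, went from 2212 to 2940 (0.41, SE 0.15, q = 0.0429), and another, at 0 at CP, reached 15.8 at CM (q = 0.0226). The difference between the 2 genes was not tested.

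ECHS1, the short-chain enoyl-CoA hydratase, was listed at 3 transitions: 1957, 1501, 1121 and 1629 estimated counts at M, CMes, CP and CM, each step within the fold limit. ACAA2, the mitochondrial thiolase, went from 193 to 307 at the last step, also within it (0.67, SE 0.23, q = 0.0202). HADH, the short-chain hydroxyacyl-CoA dehydrogenase, was listed only by an NMD transcript, at 77.5 at M and 0.665 at CMes (q = 0.00332) with a residual SD of 1.74. The enoyl-CoA isomerases handle unsaturated chains: ECI2 went from 414 to 815 (0.98, SE 0.30, q = 0.00861), and a retained-intron transcript of ECI1 from 13.9 to 56.9 (2.00, SE 0.69, q = 0.0254).

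Electrons from the acyl-CoA dehydrogenases pass to the electron transfer flavoprotein and on to its oxidoreductase. ETFB, a flavoprotein subunit, stood at 379, 527 and 1115 estimated counts at CMes, CP and CM (last step 1.08, SE 0.15, q = 7.34e-12). ETFDH, the oxidoreductase, rose further, from 52.1 to 553 (3.39, SE 0.35, q = 1.41e-20), and its other listed transcript went from 48.4 to 363 (2.90, SE 0.33, q = 1.24e-16).

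Of the 12 TCA cycle genes 9 rose from CP to CM by their leading transcript, MDH2 was within the fold limit, and DLST and SUCLG2 were not listed. The isocitrate dehydrogenases rose most. IDH2, the NADP-dependent mitochondrial enzyme, was the only one of the 12 to rise at both of the last transitions: its transcript ENST00000330062.7 stood at 327, 810 and 4226 estimated counts at CMes, CP and CM, a 12.9-fold course, and ENST00000540499.2 at 324, 904 and 2895. The step to CM of the first was 2.38 on the log2 scale (SE 0.15, q = 1.93e-53).

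IDH3A and IDH3B are subunits of the NAD-dependent enzyme that commits isocitrate to the cycle. IDH3A was the only member whose level is known at all 5 stages and which passed the limits at 3 transitions in both directions. Its transcript ENST00000558535.1, annotated without a defined coding sequence, stood at 453, 819, 266, 264 and 1712 estimated counts from iPSC to CM, with residual SDs from 0.07 to 0.31. It rose by 0.85 on the log2 scale (SE 0.14, q = 2.61e-07), fell by 1.62 (SE 0.16, q = 1.26e-21), was not listed from CMes to CP, and rose by 2.69 (SE 0.25, q = 1.21e-24). A coding transcript of IDH3A went from 21.5 to 153 at the last step (2.80, SE 0.79, q = 0.00325) and an NMD transcript from 36.2 to 350 (3.26, SE 1.23, q = 0.0440). The listed transcript of IDH3B went from 52.1 to 525 (3.32, SE 0.63, q = 2.24e-06).

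MDH1, the cytosolic malate dehydrogenase of the malate-aspartate shuttle, had the highest CM level per kilobase of transcript among the listed members, 10224 estimated counts, ahead of FABP3 with 7573. It stood at 5165 estimated counts in iPSCs, 3756 at M, 2901 at CP and 13251 at CM (last step 2.19 on the log2 scale, SE 0.15, q = 2.73e-44). MDH2, its mitochondrial counterpart, passed the limits at no transition: 4540, 5865, 3341, 3291 and 5475 from iPSC to CM, each listed step within the fold limit.

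CS, the citrate synthase that opens the cycle, stood at 6298, 4151, 4937 and 9043 estimated counts from M to CM, and only the last step passed both limits (0.87, SE 0.16, q = 4.35e-07). OGDH, the oxoglutarate dehydrogenase, stood at 1728, 1131, 1134 and 2918 (last step 1.36, SE 0.18, q = 6.56e-13), and SUCLG1, the shared succinyl-CoA ligase subunit, at 840, 635, 885 and 1977 (last step 1.16, SE 0.13, q = 3.09e-16). SUCLA2, the ATP-forming ligase subunit, went from 413 to 1035 from CP to CM (1.32, SE 0.36, q = 0.00221), and FH, fumarase, from 1714 to 3139 (0.87, SE 0.15, q = 1.81e-07). From M to CMes the steps of CS (-0.60, SE 0.12), OGDH (-0.61, SE 0.13), MDH2 (-0.81, SE 0.12) and SUCLG1 (-0.40, SE 0.14) were all below 0 and within the fold limit. At the last transition CS and FH, at 0.87, passed the fold limit of 0.84 by little, and ACADVL and MDH2, at 0.77 and 0.73, missed it by little.

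**Figure D3:**
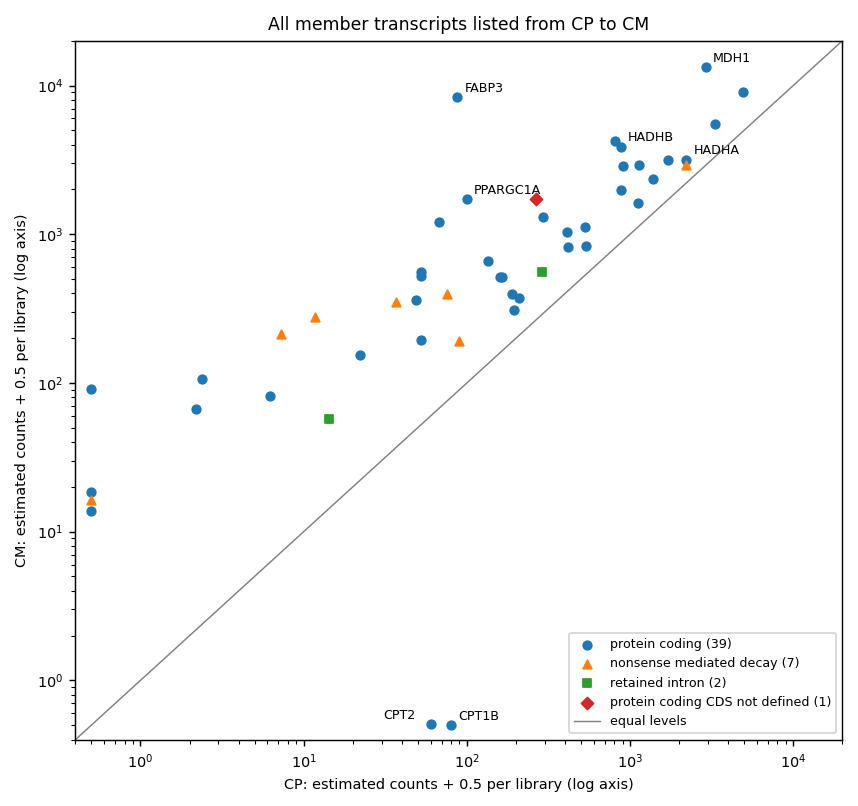
Level at CP against level at CM for all 49 member transcripts listed at that transition, as mean estimated counts + 0.5 per library on log axes, by annotated type (39 protein coding, 7 NMD, 2 retained intron, 1 without a defined coding sequence). The 47 transcripts above the line of equal levels are higher in CM, and the 2 below it are the listed CPT1B and CPT2 transcripts.

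Other genes of the same routes were counted at the same step. Their shares are of all genes of a list, also those never listed. The background of 26.6% higher and 23.6% lower counts listed genes only, and so do the members' shares above. The shares given here are therefore low by comparison, and no ranking against the background or the members is made. Of 42 other fatty acid genes 14 rose (33.3%) and 3 fell (7.14%) from CP to CM, with a median log2 change of 1.03 over the 24 listed. Of 24 other TCA cycle and entry genes 13 rose (54.2%) and 0 fell, with a median of 1.26 over the 18 listed. At the preceding step from CMes to CP the fatty acid list held 2 rises (4.76%) and 4 falls (9.52%). The TCA cycle and entry list held 0 rises and 2 falls (8.33%) there. The background at that step was 13.2% higher and 10.9% lower. Among the strongest rises by z were those of SDHA, the flavoprotein of succinate dehydrogenase (472 to 2172 estimated counts), and the peroxisomal thiolase ACAA1 (372 to 1215). The largest by z in the other direction were RXRA, the partner of PPARA (1989 to 1069), the peroxisomal HSD17B4 (1994 to 1048), ACACA, which makes malonyl-CoA (2276 to 1348, log2 change -0.76, within the fold limit), and PLIN2, a lipid droplet coat (1287 to 479). Beside these, the cardiomyocyte markers rose by a median of 5.84 on the log2 scale at the same step, all 5 smooth muscle markers rose by a median of 3.18 (summed level 7969 to 24406), 2 of 6 skeletal muscle markers rose (632 to 5774), and 3 of 6 endothelial markers fell (4991 to 643), as did the endoderm and pluripotency markers. The part of changing cell types in the members' rises was not tested. In bulk RNA, fewer cells of a type and less RNA per cell cannot be told apart.

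The comparison of UBE2B-/- with wild-type CMs asked which transcripts depend on UBE2B. In UBE2B-/-1 8 of the 34 members listed in any table fell (23.5%, background 6.75%) and 2 rose (5.88%, background 9.59%). In UBE2B-/-2 8 fell (23.5%, background 5.81%) and 0 rose (background 10.5%). The 0 is of the Wald test in Sleuth, and no member was listed as higher there at all. In both lines 7 fell: PPARGC1A, PPARA, FABP3, ACADM, ETFDH, IDH3A and MDH1, 20.6% of the 34 members against 3.75% of the listed genes, and 0 rose in both, against 7.15%. FH was lower in both and within the fold limit. The lines share their 3 wild-type libraries, so their agreement on a member is not independent. With the t distribution on 6 residual degrees of freedom 0 members passed in either line. All 11 and 10 listed had an unadjusted p under 0.05 in that test, but here too the limit for listing already ensures this.

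PPARGC1A stood at 1714 estimated counts in wild-type CMs, 513 in UBE2B-/-1 and 609 in UBE2B-/-2, with a residual SD of 0.37. It fell by 1.74 on the log2 scale in UBE2B-/-1 (SE 0.30, q = 2.89e-06) and by 1.49 in UBE2B-/-2 (SE 0.30, q = 1.03e-04), and the levels were 5.13 and 6.09 times that of CP. Ratios of a line to CP cross separate fits, and none was tested. The retained-intron transcript of PPARA stood at 560, 255 and 282 (-1.13 and -0.99, SE 0.24, q = 2.72e-04 and 0.00237), at 0.879 and 0.973 times its CP level. ESRRG was listed for UBE2B-/-2 alone, at 519 in wild type and 185 (-1.49, SE 0.49, q = 0.0499, at the edge of the limit). Its change in UBE2B-/-1, solved from the variance columns of the same fit, was -1.48. ESRRA was listed for neither line.

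FABP3 stood at 8309 in wild type, 3691 in UBE2B-/-1 and 3277 in UBE2B-/-2, with a residual SD of 0.32. The changes were -1.17 (SE 0.26, q = 8.93e-04) and -1.34 (SE 0.26, q = 6.55e-05), and the mutant levels were 42.4 and 37.6 times that of CP. The NMD transcript of FABP3 fell in UBE2B-/-2 (214 to 60.5, -1.82, SE 0.45, q = 0.00326), with a solved change of -0.92 in UBE2B-/-1. No other gene of uptake and activation, and none of the carnitine shuttle, was listed for either line.

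Among the enzymes of beta-oxidation, the ACADM transcript ENST00000420607.6 stood at 834, 411 and 437 estimated counts (-1.02 and -0.93, SE 0.23, q = 8.65e-04 and 0.00314), at 0.768 and 0.818 times its CP level. A further coding and an NMD transcript of ACADM fell in UBE2B-/-1, by 1.28 and 1.64 on the log2 scale (SE 0.35 and 0.50), and their solved changes in UBE2B-/-2 were -1.07 and -1.05. ETFDH fell by both of its listed transcripts in both lines: the leading one stood at 553, 263 and 258 (-1.07 and -1.10, SE 0.33, q = 0.0343 and 0.0285), and the other at 363, 188 and 176 (-0.95 and -1.05, SE 0.29, q = 0.0318 and 0.0133).

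In the TCA cycle, IDH3A stood at 1712, 688 and 709 (-1.32 and -1.27, SE 0.24, q = 1.52e-05 and 3.03e-05) and MDH1 at 13252, 6420 and 6406 (-1.05 in each, SE 0.25, q = 0.00201 and 0.00189). A coding and an NMD transcript of IDH3A fell in UBE2B-/-1 by 1.76 and 1.63 on the log2 scale (SE 0.54 and 0.40), with solved changes of -1.51 and -0.98 in UBE2B-/-2. FH stood at 3139, 1959 and 1954 (-0.68 in each, SE 0.22, q = 0.0414 and 0.0393), within the fold limit. SUCLG1 was listed for UBE2B-/-2 alone, at 1977 and 1328 (-0.57, SE 0.19, q = 0.0492, within the fold limit), with a solved change of -0.45 in UBE2B-/-1. OGDH was listed by a minor transcript in UBE2B-/-1 (-1.98, SE 0.53, q = 0.00816).

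**Figure D4:**
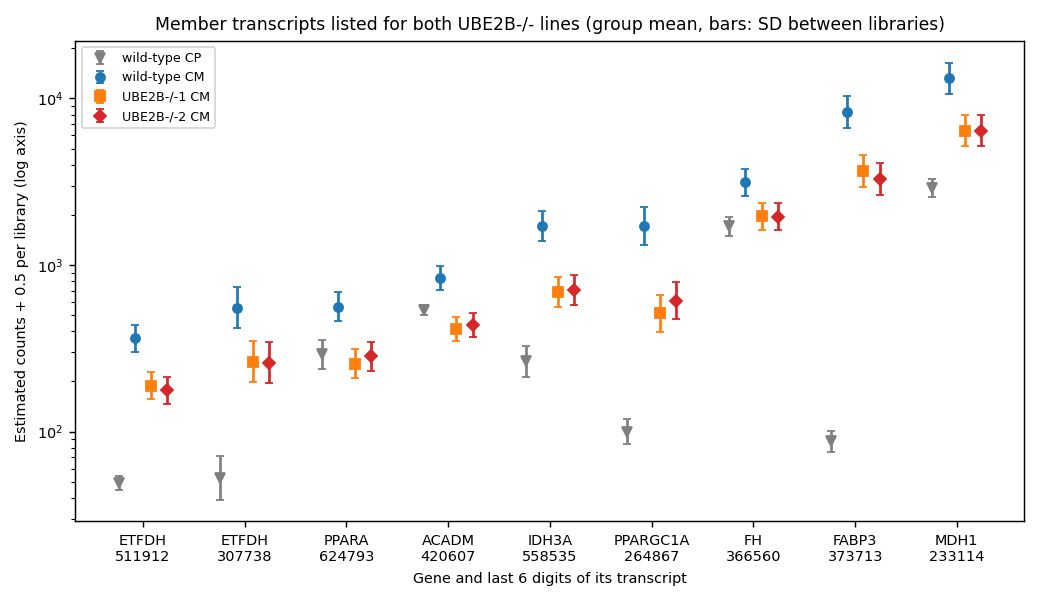
Levels of the 9 member transcripts listed for both UBE2B-/- lines in wild-type CP, wild-type CM and the CMs of each line, as mean estimated counts + 0.5 per library on a log axis with bars of 1 residual SD between 3 libraries. Both lines lie below wild-type CM for each transcript and near each other: FABP3 stands at 8309 in wild-type CM and at 3691 and 3277 in the lines.

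The 4 member transcripts that rose in UBE2B-/-1 were all annotated as other than protein coding: 2 retained-intron transcripts of ACADVL (0.87, SE 0.26, q = 0.0254, and 0.97, SE 0.30, q = 0.0339), an NMD transcript of IDH2 (1.57, SE 0.43, q = 0.0104) and a retained-intron transcript of ACADM (q = 0.00655, with a mean of 3.83 estimated counts over the 9 libraries of the fit, too low for a fold). The first 3 had means of 297, 199 and 588. None was listed for UBE2B-/-2, and their changes there could not be traced.

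The 2 lines were compared directly for the 9 member transcripts listed for both. No difference passed an adjusted p of 0.05 in the Wald test on the authors' standard errors, adjusted by Benjamini-Hochberg over the 1992 transcripts listed for both, and 0 had an unadjusted p under 0.05, against 1.46% of the 1992. These transcripts were listed as changed in both lines against the same wild-type libraries, which leaves out those that differ between the lines, so the test says little about how alike the lines are. The largest difference was that of PPARGC1A, -0.25 on the log2 scale (95% interval -0.83 to 0.34), and for MDH1 it was 0.00 (-0.49 to 0.49). For the NMD transcript of FABP3, listed for 1 line, the solved difference was 0.90 (0.02 to 1.78), without adjustment.

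Markers of other cells moved beside these values. Of the 12 cardiomyocyte markers 7 fell in both lines and 0 rose: TNNT2, MYL7, ACTN2, PLN, RYR2, NPPA and TTN. The summed level of the 7 listed for UBE2B-/-1 was 249256 in wild type and 46816 in the line, and that of the 9 listed for UBE2B-/-2 was 263468 and 50813. These sums hold MYL7 only by minor transcripts. Its leading transcript from CP to CM, at 79957 in CM, was listed for neither line, nor was MYH7, at 193261 in CM. MYH6, at 61493 in CM by its leading transcript, entered only the second sum, by another transcript. Of the 8 mesenchymal markers 3 rose in UBE2B-/-1 (6412 to 73551 over the 2 traced) and 5 in UBE2B-/-2 (9050 to 220165 over the 4 traced), COL3A1 and DCN in both. The smooth muscle marker CNN1 fell in both by a minor transcript, ENST00000586059.5 (629 in wild type, 172 and 175 in the lines). The CNN1 transcript that led from CP to CM, at 6504 in CM, was listed for neither line. SOX17 rose in UBE2B-/-1 and KDR in UBE2B-/-2. The pluripotency and skeletal muscle markers were listed for neither line. The part of these markers in the members' falls was not tested. Of the 42 other fatty acid genes 2 rose and 2 fell in UBE2B-/-1 (4.76% each, background 9.59% and 6.75%), and 1 rose (2.38%) and 2 fell (4.76%) in UBE2B-/-2 (background 10.5% and 5.81%). Shares of this list and the next are of all their genes, also those never listed. The background counts listed genes only, so the shares are low by comparison and no ranking against it is made. Of the 24 other TCA cycle and entry genes 0 rose and 6 fell (25.0%) in UBE2B-/-1, and 1 rose (4.17%) and 2 fell (8.33%) in UBE2B-/-2. Among them PPARGC1B, the paralogous coactivator, fell in both lines (-1.52 and -0.95, SE 0.30), as did GOT1 of the malate-aspartate shuttle (-0.95 and -0.85, SE 0.25) and PDHA1 of pyruvate dehydrogenase (-0.97 and -0.94, SE 0.26), while SLC27A1, a fatty acid transport protein, rose (1.13 and 1.41, SE 0.30). The PDHA1 values are of ENST00000379804.1, and another transcript, ENST00000422285.6, led from CP to CM (2454 estimated counts at CM).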

How the data were processed

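RNA-seq of 15 wild-type libraries at 5 stages and 6 libraries of UBE2B-/- CMs was used. Per the methods, trimming used the FASTX-Toolkit, and the authors ran Kallisto on hg38 and then Sleuth. The deposited tables hold the results of the authors' own 6 comparisons and nothing else: per transcript a p-value and q-value of the Wald test, b and its standard error as a natural log, the mean natural log of the deposited estimated counts + 0.5, and variances, which are deposited scores on the squared natural-log scale. There were 0 columns of per-sample values, so depth per library is unknown and precision is the standard error of the fit.

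The deposited values were recomputed: b over its standard error gave the p-value, and p-value, rank and q-value gave 65457 to 71328 transcripts tested. The log2 change is b over the natural log of 2. Limits were a q-value of 0.05 and an absolute b of 0.585. Group means came from b and the overall mean, shifted between tables by the median difference at the shared stage (0.121, -0.00632 and -0.0673, and 0.143 for the UBE2B-/- fit). For transcripts listed for 1 line, the other line's change was solved from the variances and the wild-type mean.

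Annotation was GENCODE 44, joined without versions (93.9% to 95.1% of rows matched). Members, lists, named genes and tests were chosen with earlier results of these data known. All members are named, other listed transcripts where called against the leading one or of another type, and of the other pathway genes the 4 with the largest z in each direction, of which some are not reported here. Alternatives were other limits, a t distribution, any transcript, coding transcripts and other offsets. The formulas were tested on simulated data with Python 3.11.15, pandas 2.3.3 and scipy 1.17.1.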

Additional observations from a re-analysis of the deposited data

How the results depend on the processing

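Counts of members past the limits were recomputed under 6 alternatives each. With an absolute b of at least 0.405, a q-value of at most 0.01 or any called transcript, each count stayed within 1.5 times its value. A t distribution moved every count: from 26 to 6 from CP to CM, and to 0 from 2, 6 and 5 at the earlier transitions, from 10 and 8 in the UBE2B-/- lines and from 7 in both. This follows from its construction, since it lengthens the tails at 4 or 6 degrees of freedom. Without a fold limit the counts were 5 for iPSC to M, 11 for M to CMes and 10 for CMes to CP. With protein-coding transcripts alone they were 1 for iPSC to M and 3 for M to CMes. Coding transcripts gave 24 from CP to CM, 7 in UBE2B-/-1, 6 in UBE2B-/-2 and 5 in both lines. PPARA and IDH3A dropped out of the 7 members lower in both lines, since their shared transcripts are not annotated as protein coding. The median iPSC to CM change of the 4 members' transcripts known at both ends (1.64 on the log2 scale) was the same to 2 decimals under both other offsets. Taking the transcript with the next lower mean turned no direction in the 22 cases with a further listed transcript, and ACADVL passed the fold limit at CP to CM (2.39 in place of 0.77). No paired analysis was possible because the tables hold no values of single libraries, and for the same reason leaving out replicates and other scalings were not run. Transcripts of CD36, CPT1B, CPT2 and HADH had a group mean under 3 counts, as did further transcripts of ACADVL, CPT1A, ACSL1 and HADHA. The fitted changes of these transcripts depend on the pseudocount.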
